A study of Mus musculus with 10 samples.

Results

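The Notch pathway and its Hes and Hey genes were followed through the brains of mouse embryos at E18.5, shortly before birth. The 10 genes were chosen by name: the receptors Notch1, Notch2 and Notch3, the ligands Dll1, Dll3 and Jag1, and the transcription factors Hes1, Hes5, Hey1 and Hey2. Each was found by its Entrez identifier among the 28059 identifiers listed, and all 10 were among the 18671 genes with enough counts to be tested. Messenger RNA had been counted in 10 libraries, 2 for each of 5 genotypes, from brains without olfactory bulbs. The controls were heterozygous for COP1 (COP1 het control, written control). The other genotypes were a COP1 KO (KO), a COP1.cJun DKO (DKO), a COP1.cJun.ETV1 TKO (TKO) and a COP1.cJun.ETV1.ETV5 QKO (QKO). All 4 knockout genotypes lack COP1, and the controls carry 1 intact copy of it, so no wild-type brain was compared. Neither the strain, nor the means of deletion, nor the cells that lost the genes are given in the sources used here. COP1 is part of a ubiquitin ligase whose known substrates include the transcription factors cJun, ETV1 and ETV5.

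In Notch signalling, a Delta or Jagged ligand on 1 cell binds a Notch receptor on its neighbour, and proteases then free the receptor's intracellular domain. In the nucleus that domain joins the DNA-binding protein RBPJ and turns on Hes and Hey genes, whose products repress proneural genes. In the embryonic brain this pathway is known for keeping radial glia, the neural stem cells, from differentiating into neurons, and Notch also acts in blood vessels, where Notch3 marks pericytes and smooth muscle.

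Library totals ranged from 31996944 to 54594523 counts. Of the targeted genes, Jun stood between 14.99 and 16.1 nRPKM in the control and KO libraries and between 1.44 and 2.94 nRPKM in those of DKO, TKO and QKO. The nRPKM is the deposited RPKM after scaling by each library's size factor, a level per length of gene. Cop1 was between 4.74 and 4.9995 nRPKM in control and between 3.57 and 4.39 nRPKM in the 4 knockout genotypes. Etv1 was between 1.76 and 2.29 nRPKM in KO and DKO and higher, between 3.67 and 4.71 nRPKM, in the libraries labelled TKO and QKO. Etv5 was between 3.75 and 3.93 nRPKM in TKO and between 3.97 and 4.11 nRPKM in the libraries labelled QKO. Whole-gene counts cannot show whether an exon was lost, so for these 3 genes the labels are unchecked, and directions that involve TKO or QKO rest on the labels. Xist, which coats the silenced X chromosome of females, was at 1840 CPM in control 1 and 1464 CPM in DKO 1 and at most 1.94 CPM in the other 8 libraries, so KO, TKO and QKO held libraries of the male pattern only. Genes of the HOX clusters, which mark the hindbrain and spinal cord, summed to between 34.2 and 44.2 CPM in control, 1.90 and 4.52 CPM in KO, 4.72 and 9.72 CPM in DKO, 16.4 and 21.0 CPM in TKO, and 5.62 and 35.0 CPM in QKO. The 7 neuronal markers summed to between 7444 and 7866 CPM in every library, and none of them was at 0 over all 10 libraries together.

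The promoters of 4 members are shown as examples of the motifs found. Those of Hes5 and Hey2 are shown for the site through which Notch is known to act. That of Dll1 is shown for a loose match to the site of AP-1 factors, and that of Notch1 for a site of Hes proteins in the receptor that was called. Notch2 and Notch3 also had matches, given after the sequences. RefSeq on build GRCm38.p6 gave a start for 8 of the 10 members, all except Hes1 and Hey1, and the 250 bases before each start were searched on both strands. Dll1 had 2 starts, which made 9 windows. The motifs were TGGGAA, the core bound by RBPJ, and CACNAG, the N-box bound by Hes proteins. The others were TGANTCA, a loose form of the site of AP-1 factors such as cJun, and CCGGAAG, a site of ETS factors such as ETV1 and ETV5. N stands for any base. Capitals mark the match, read in either direction, and each sequence runs 5′ to 3′ along the gene's strand and ends at the base before the start.
Notch1, chr2:26503823-26504072, minus strand, with CACNAG: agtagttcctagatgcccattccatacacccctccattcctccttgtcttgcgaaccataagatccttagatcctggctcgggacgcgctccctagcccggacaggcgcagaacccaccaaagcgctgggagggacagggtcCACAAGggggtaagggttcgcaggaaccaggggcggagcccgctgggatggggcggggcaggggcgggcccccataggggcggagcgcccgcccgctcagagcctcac
Dll1, chr17:15376933-15377182, minus strand, with TGANTCA: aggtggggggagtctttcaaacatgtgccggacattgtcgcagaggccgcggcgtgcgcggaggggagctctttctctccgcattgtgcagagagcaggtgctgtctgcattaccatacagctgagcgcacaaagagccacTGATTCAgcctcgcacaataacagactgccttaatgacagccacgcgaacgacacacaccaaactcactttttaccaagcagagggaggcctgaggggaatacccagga
Hes5, chr4:154960673-154960922, plus strand, with TGGGAA in both directions: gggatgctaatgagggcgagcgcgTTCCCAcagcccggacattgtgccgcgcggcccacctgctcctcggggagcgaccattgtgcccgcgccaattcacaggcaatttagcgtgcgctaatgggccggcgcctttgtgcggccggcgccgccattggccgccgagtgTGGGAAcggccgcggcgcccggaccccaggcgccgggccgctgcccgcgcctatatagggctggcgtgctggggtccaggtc
Hey2, chr10:30842784-30843033, minus strand, with TGGGAA in the reverse direction: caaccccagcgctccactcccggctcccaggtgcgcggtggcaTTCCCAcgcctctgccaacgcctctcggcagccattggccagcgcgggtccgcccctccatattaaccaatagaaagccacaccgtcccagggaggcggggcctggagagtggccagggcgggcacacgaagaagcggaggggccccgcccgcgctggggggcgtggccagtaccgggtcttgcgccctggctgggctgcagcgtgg

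The RBPJ core was in the windows of Hes5, at 226 and 82 bases before the start, and of Hey2, at 207 bases. Of 32851 such windows in RefSeq, 21.6% held it. The N-box was at 108 bases before the start of Notch1, at 247 bases in Notch2 and at 204 and 159 bases in Notch3, and 36.7% of all windows held one. TGANTCA was found at the second start of Dll1, 109 bases before it and with T at N, and in 6.75% of all windows with any base at N. The ETS site was in none of the 9 windows and in 6.91% of all windows. The RBPJ core and the ETS site share the letters GGAA, though neither motif holds the whole of the other. A match is a run of letters, and the counts below say nothing about whether a factor binds there.

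**Figure D1:**
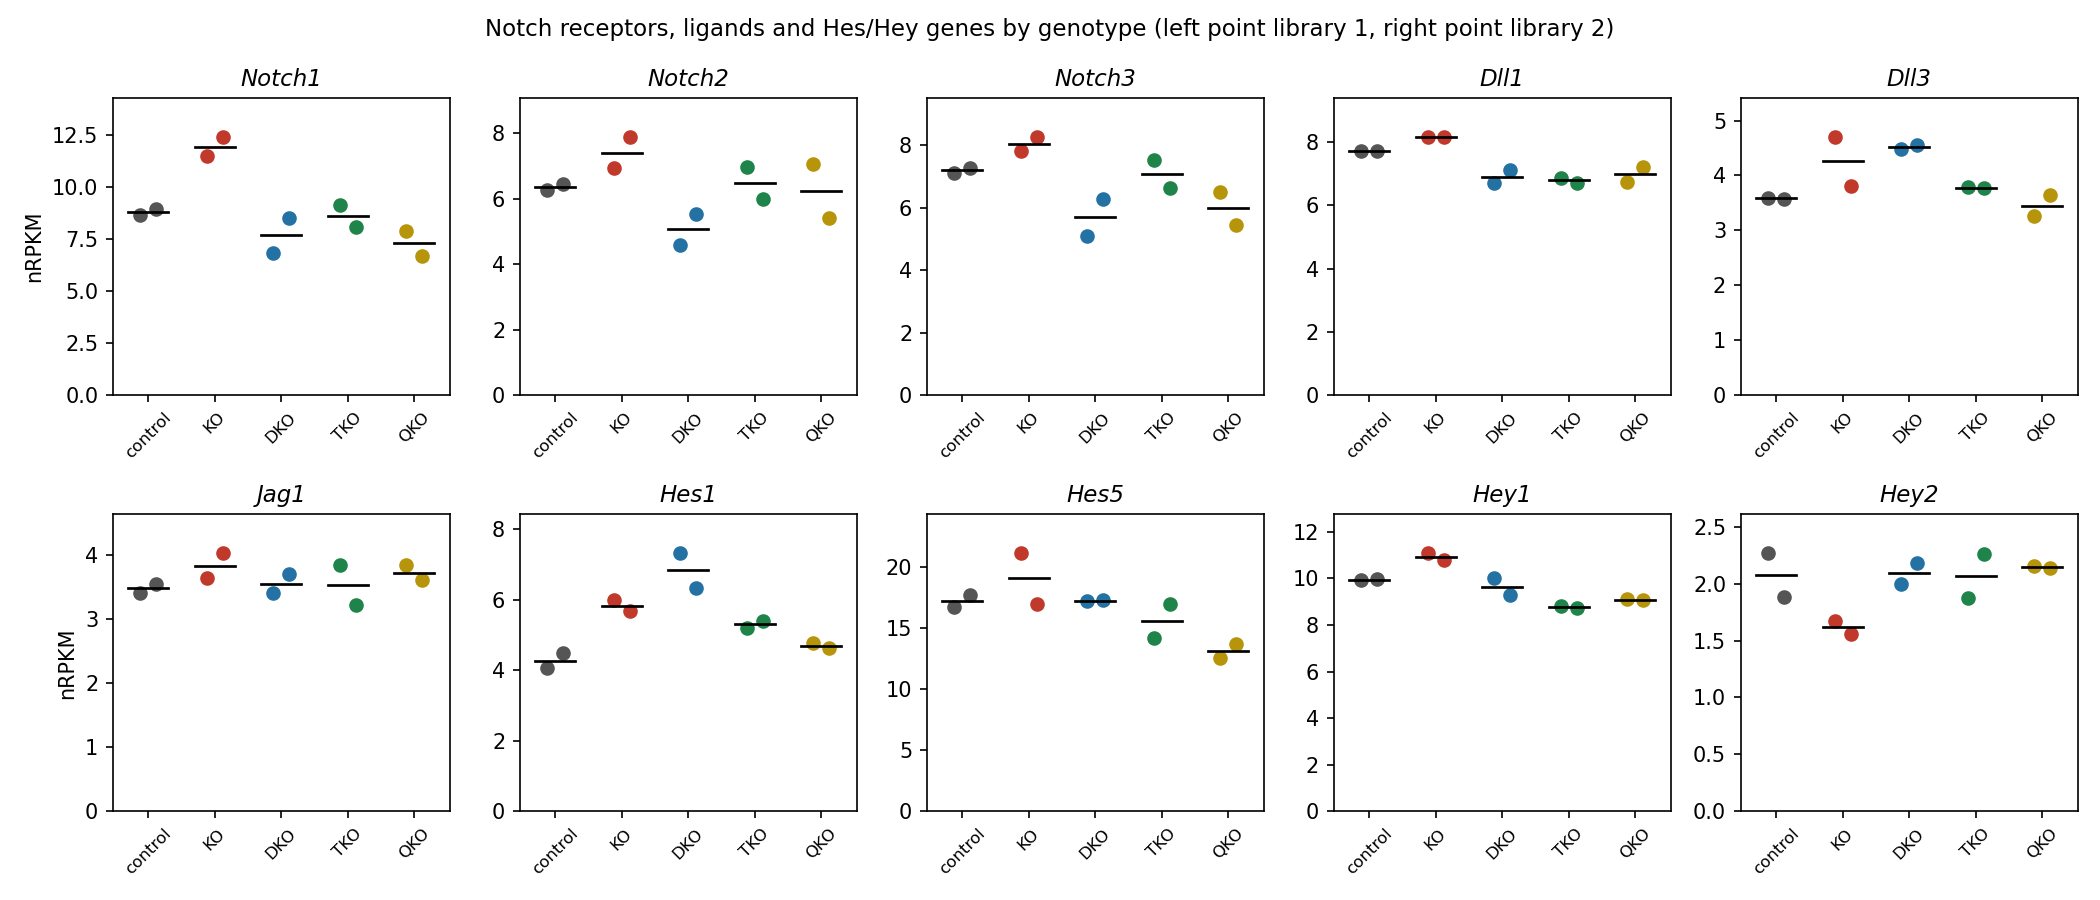
Levels of the 10 genes in nRPKM (vertical axes, linear and starting at 0) in each of the 2 libraries (points) of the 5 genotypes (horizontal axes), with the group mean as a bar. Notch1 was between 11.5 and 12.4 nRPKM in KO and at most 9.14 nRPKM elsewhere, while Hes1 was lowest in control and highest in DKO.

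Among all 10 genes, Notch1 and Hes1 differed among the genotypes. In the test for any difference among the 5 genotypes (edgeR quasi-likelihood F test, Benjamini-Hochberg adjustment over all genes tested, called at an adjusted p under 0.05), Notch1 had an adjusted p of 0.0263 and Hes1 of 0.0400. These were 2 of 10 members, where 1.25% of all genes were called. Notch1 was called in 12 of 18 alternative fits and lost without either control, KO or TKO library (adjusted p between 0.0617 and 0.216). Hes1 was called in 8 of 18 and lost without either control, KO or TKO library or DKO 1 (adjusted p between 0.0912 and 0.170), with Xist or the HOX genes as a covariate, and without both libraries of high Xist (adjusted p = 0.414). The other 8 had adjusted p-values between 0.12 for Notch3 and 0.817 for Jag1. Hes5 led in level among the members, at a median of 17.0 nRPKM over the 10 libraries, and Hey2 was lowest, at 2.07 nRPKM. Notch1 (8.60), Notch3 (6.86) and Notch2 (6.36 nRPKM) lay between them, as did Hey1 (9.59), Dll1 (7.16), Hes1 (5.29), Dll3 (3.78) and Jag1 (3.62 nRPKM).

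Notch1 is a receptor of radial glia and of vessels. It stood at 8.66 and 8.95 nRPKM in control, 11.5 and 12.4 in KO, 6.85 and 8.53 in DKO, 9.14 and 8.09 in TKO, and 7.92 and 6.68 in QKO. Both KO libraries lay above all 8 others, as they did in 4.43% of all genes, and the control, TKO and DKO ranges overlapped in turn. Against KO, Notch1 fell in DKO from 11.96 ± 0.667 to 7.69 ± 1.19 nRPKM (mean ± SD, n = 2), a 1.57-fold decrease (log2 -0.65 ± 0.11 SE, edgeR adjusted p = 0.0231). It was the 1 member of 10 called in DKO against KO, where 0.568% of all genes were called and 0.37% were called lower. Notch1 was also lower in the mean of DKO, TKO and QKO than in KO, 1.53-fold (log2 -0.62 ± 0.08, edgeR adjusted p = 0.00539). It was again the 1 member called, where 0.98% of all genes were called and 0.707% were called lower. These comparisons share the KO and DKO libraries. KO against control gave 0.45 ± 0.11 for Notch1, which missed the threshold (edgeR adjusted p = 0.107).

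The decrease of Notch1 in DKO against KO passed in 11 of 18 alternative fits. It was lost without control 1, control 2, KO 1, KO 2 or DKO 1, each left out in turn (log2 between -0.80 and -0.48 over all 10 such fits). It was also lost without the pair of libraries with high Xist (-0.49, adjusted p = 0.201) and with Xist as a covariate (-0.56, adjusted p = 0.0797). The lower level in the mean of the 3 compound knockouts passed in 16 of 18, including without the libraries with high Xist (-0.56, adjusted p = 0.00694), and was lost without KO 1 (adjusted p = 0.0549) or KO 2 (adjusted p = 0.131).

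Notch2, a broadly expressed receptor, and Notch3 were also highest in KO by their means. Notch2 stood at 6.27 and 6.45 nRPKM in control, 6.93 and 7.89 in KO, 4.59 and 5.53 in DKO, 6.97 and 5.99 in TKO, and 7.06 and 5.41 in QKO. Its KO range overlapped that of TKO and that of QKO. Notch3 stood at 7.11 and 7.28 nRPKM in control, 7.81 and 8.26 in KO, 5.09 and 6.27 in DKO, 7.52 and 6.61 in TKO, and 6.51 and 5.44 in QKO, with both KO libraries above all 8 others. In DKO against KO neither passed: the log2 difference was -0.56 ± 0.13 for Notch2 (edgeR adjusted p = 0.113) and -0.51 ± 0.11 for Notch3 (edgeR adjusted p = 0.0782). DESeq2 called both in that comparison along with Notch1, which made 3 members.

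The receptors are long genes, and the libraries differed in how long genes stood against short ones. Relative to the median gene tested, the gene models were 3.68 times as long for Notch1, 4.05 for Notch2, 3.07 for Notch3 and 2.04 for Jag1, and between 0.495 (Hes5) and 1.33 (Dll1) for the other 6. For the longest 10% of genes (1865 genes), the log2 deviation from the mean of all 10 libraries was taken. Its median was 0.10 in KO 2, -0.13 in DKO 1, 0.07 in TKO 1 and -0.06 in QKO 2. In that median, DKO 1 lay 0.13 below DKO 2 on the log2 scale, and TKO 1 and QKO 1 lay above their partners by 0.12 and 0.11. Notch1 differed between the same libraries by -0.31, 0.18 and 0.25, Notch2 by -0.26, 0.22 and 0.39, and Notch3 by -0.29, 0.19 and 0.27. Within DKO, TKO and QKO, the receptors thus differed between libraries in the direction in which long genes did.

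A length score, the median deviation of the longest 10% of genes minus that of the shortest 10%, was entered as a covariate, a fit chosen after seeing the data. The log2 difference of Notch1 was then -0.44 ± 0.07 in DKO against KO (edgeR adjusted p = 0.0247) and 0.36 in KO against control, which passed (adjusted p = 0.0125). Notch2 differed by -0.30 (adjusted p = 0.255) and Notch3 by -0.31 (adjusted p = 0.199) in DKO against KO. With an offset fitted to length in each library, also chosen after seeing the data, all 3 passed in DKO against KO, Notch1 at -0.47, Notch2 at -0.36 (adjusted p = 0.0287) and Notch3 at -0.38 (adjusted p = 0.0235). The difference of Notch1 was therefore smaller and remained called under both, and the calls of Notch2 and Notch3 differed between them.

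**Figure D2:**
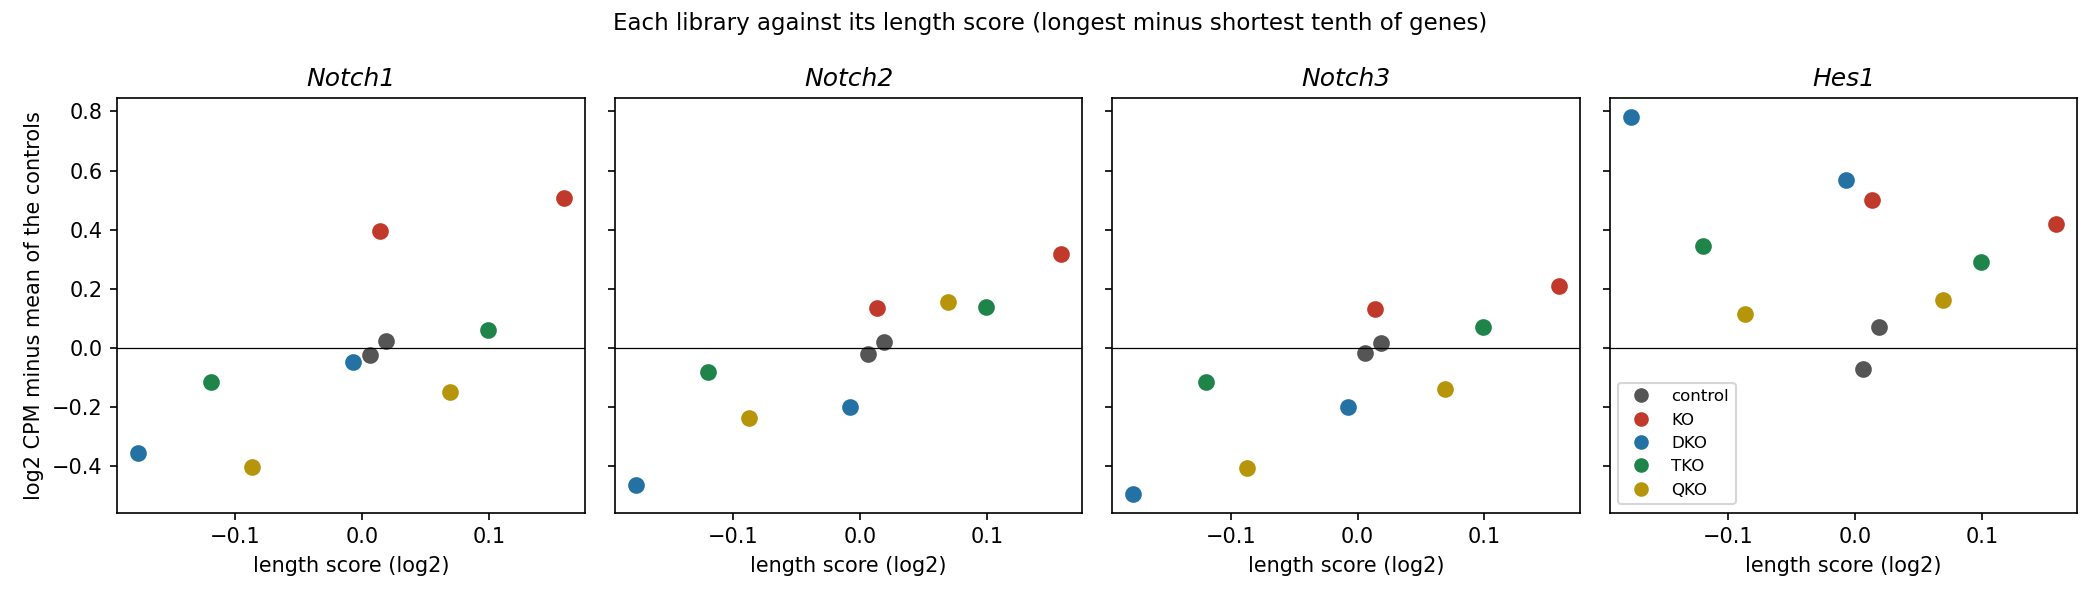
Log2 deviation from the control mean of Notch1, Notch2, Notch3 and Hes1 (vertical axes) against the length score of each library (horizontal axes, log2 units), 1 point for each of the 10 libraries. The receptors lie higher in libraries with a higher score (KO 2 at 0.159, DKO 1 at -0.177), and Notch1 in both KO libraries lies above the others.

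Across the 10 libraries, Pearson's r with the length score was 0.90 for Notch2, 0.84 for Jag1, 0.81 for Notch3, 0.73 for Notch1 and -0.30 for Hes1. These are descriptions over 10 libraries that share genotypes in pairs. The 3 genes most like Notch1 in log2 CPM were Fam120c, Zmat3 and Rfx4 (r = 0.98 for each, 10 libraries), and those most like Notch3 were Usp31, Gga3 and Abca1 (r = 0.97 for each). All 6 have gene models longer than the median gene, between 1.42 and 3.96 times.

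None of the 3 ligands was called by edgeR in any comparison, or by DESeq2. Dll1, the Delta ligand of newborn neurons and their progenitors, stood at 7.73 and 7.74 nRPKM in control, 8.17 and 8.15 in KO, 6.71 and 7.12 in DKO, 6.88 and 6.71 in TKO, and 6.75 and 7.20 in QKO. The KO libraries were the highest, the control libraries came next, and the other 6 overlapped one another at lower levels. The mean of DKO, TKO and QKO against KO differed by -0.25 ± 0.06 and did not pass (edgeR adjusted p = 0.0858). Dll3, a Delta family member that acts within the cell rather than as an activating ligand, stood at 3.59 and 3.58 nRPKM in control, 4.70 and 3.82 in KO, 4.48 and 4.55 in DKO, 3.79 and 3.76 in TKO, and 3.26 and 3.64 in QKO. Its levels in DKO lay within the range of KO, and its log2 difference from control was 0.34 ± 0.11 in DKO (edgeR adjusted p = 0.396). Jag1, a Jagged ligand, ranged from 3.21 to 4.03 nRPKM over all libraries, each genotype overlapped the next in order of the means, and no comparison gave it more than 0.15 in size on the log2 scale.

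Hes1, a Notch target that represses proneural genes, was the member whose genotypes separated most fully. It stood at 4.05 and 4.48 nRPKM in control, 5.99 and 5.67 in KO, 7.32 and 6.33 in DKO, 5.20 and 5.39 in TKO, and 4.76 and 4.62 in QKO. The order was DKO, KO, TKO, QKO and control, with no overlap between any of the 5 genotypes, which held for 1 member of 10 and for 0.289% of all genes. Hes1 rose in DKO against control from 4.27 ± 0.309 to 6.83 ± 0.697 nRPKM (n = 2), a 1.61-fold increase (log2 0.68 ± 0.11, edgeR adjusted p = 0.0209). It was the 1 member called in that comparison, where 0.423% of all genes were called. In KO against control the log2 difference was 0.46 ± 0.11 (edgeR adjusted p = 0.104), in DKO against KO 0.22 ± 0.11 (adjusted p = 0.378), and in TKO against DKO -0.37 ± 0.11 (adjusted p = 0.293), and none of these 3 passed. The step from KO to TKO was not tested. QKO differed from control by 0.14 ± 0.11 (adjusted p = 0.884).

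The rise of Hes1 in DKO passed in 12 of 18 alternative fits. It was lost without control 1, control 2, DKO 1 or TKO 1 (log2 between 0.57 and 0.78 over the 10 libraries left out in turn), without the libraries with high Xist (0.50, adjusted p = 0.546), which leaves 1 library each of control and DKO that is assumed to vary like the other genotypes, and with the HOX genes as a covariate (0.71, adjusted p = 0.255). With the length score as covariate it was 0.64 (adjusted p = 0.0450). Erythroid genes were also highest in DKO, but lowest in KO. Their 5 markers summed to between 283 and 345 CPM in DKO and 95.5 and 122 CPM in KO. In control they summed to between 128 and 146 CPM, in TKO 153 and 160 CPM, and in QKO 155 and 190 CPM. The part of the erythroid genes in the result was not tested. The 3 genes most like Hes1 over the 10 libraries were Wwc1 (r = 0.95), Igfbp2 and Gna14 (r = 0.93 for each).

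Hes5, a Notch target of radial glia, showed another order. It stood at 16.8 and 17.7 nRPKM in control, 21.2 and 17.0 in KO, 17.2 and 17.3 in DKO, 14.2 and 17.0 in TKO, and 12.5 and 13.7 in QKO. Both QKO libraries lay below all 8 others, and the share of all genes that do so was not counted. The other 4 genotypes overlapped in order of their means. QKO differed from control by -0.39 ± 0.12 on the log2 scale (edgeR adjusted p = 0.440), and the mean of DKO, TKO and QKO from KO by -0.34 ± 0.09 (adjusted p = 0.160).

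The Hey genes, Notch targets best known from heart and vessels, differed from control with opposite signs in KO. Hey1 stood at 9.91 and 9.98 nRPKM in control, 11.1 and 10.8 in KO, 10.02 and 9.26 in DKO, 8.80 and 8.71 in TKO, and 9.12 and 9.05 in QKO. Hey2 stood at 2.27 and 1.89 nRPKM in control, 1.68 and 1.56 in KO, 1.996 and 2.18 in DKO, 1.87 and 2.26 in TKO, and 2.15 and 2.14 in QKO. In both KO libraries Hey1 was above all 8 others, as were 4.43% of all genes, and Hey2 was below all 8 others. The share of all genes that lie below all 8 others in KO was not counted. The mean of DKO, TKO and QKO differed from KO by -0.26 ± 0.06 for Hey1 (edgeR adjusted p = 0.0858) and by 0.37 ± 0.12 for Hey2 (adjusted p = 0.229). Neither passed in any comparison.

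**Figure D3:**
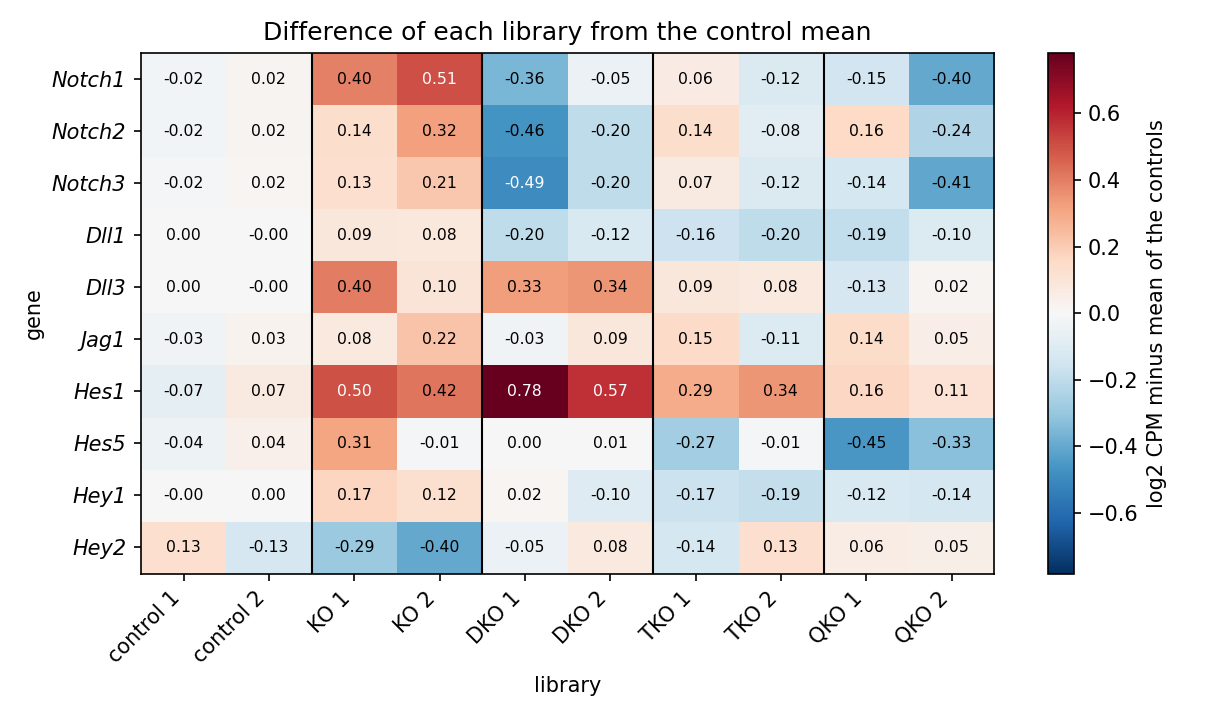
Log2 deviation of each gene (rows) from its control mean in each of the 10 libraries (columns, grouped by genotype), in colour. Notch1 (0.40 and 0.51) and Hes1 (0.50 and 0.42) are high in KO, Hes1 is highest in DKO (0.78 and 0.57) and Hes5 is lowest in QKO (-0.45 and -0.33).

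KO against control, the loss of COP1, gave 0 of 10 members called by edgeR, where 0.734% of all genes were called. At an unadjusted p under 0.05, Notch1, Hes1 and Dll3 were higher and Hey2 lower, against 6.22% and 4.21% of all genes, and DESeq2 called Notch1 alone. The nRPKM values of the 2 genotypes did not overlap for 8 members that were higher in KO, all except Hes5 and Hey2, and for Hey2, which was lower, while 24.5% and 25% of all genes separated in these ways. The median log2 difference of the 10 was 0.16, beside 0.01 over all genes. DKO against KO had Notch1, Notch2, Notch3, Dll1 and Hey1 lower and Hey2 higher at an unadjusted p under 0.05, against 8.62% and 5.21% of all genes. The same 5 members were lower without overlap, as were 23.2% of all genes. Hes1 and Hey2 were higher without overlap, and the share of all genes that were is not given here. Of the 10, KO was above all 6 libraries of DKO, TKO and QKO in Notch1, Notch3, Dll1 and Hey1, as it was in 5.7% of all genes. It was below all 6 in Hey2, as it was in 6.1%. These tallies share the KO libraries.

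Further deletion of ETV1 and ETV5 gave 0 of 10 members called by edgeR and 0 by DESeq2. In TKO against DKO, where 0.0911% of all genes were called, Notch2 (0.36 ± 0.13) and Notch3 (0.32 ± 0.11) were higher and Hes1 and Dll3 (-0.25 ± 0.11) lower at an unadjusted p under 0.05, against 7% and 4.93% of all genes. In QKO against TKO, where 0.289% were called, Notch1 and Notch3 (-0.25 ± 0.11 for each) were lower at that level, as were 3.58% of all genes. In QKO against control, where 0.236% were called, 0 of 10 were called by either tool, and Notch1, Notch3 (-0.27 ± 0.11 for each) and Hes5 were lower at an unadjusted p under 0.05, as were 3.5% of all genes.

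**Figure D4:**
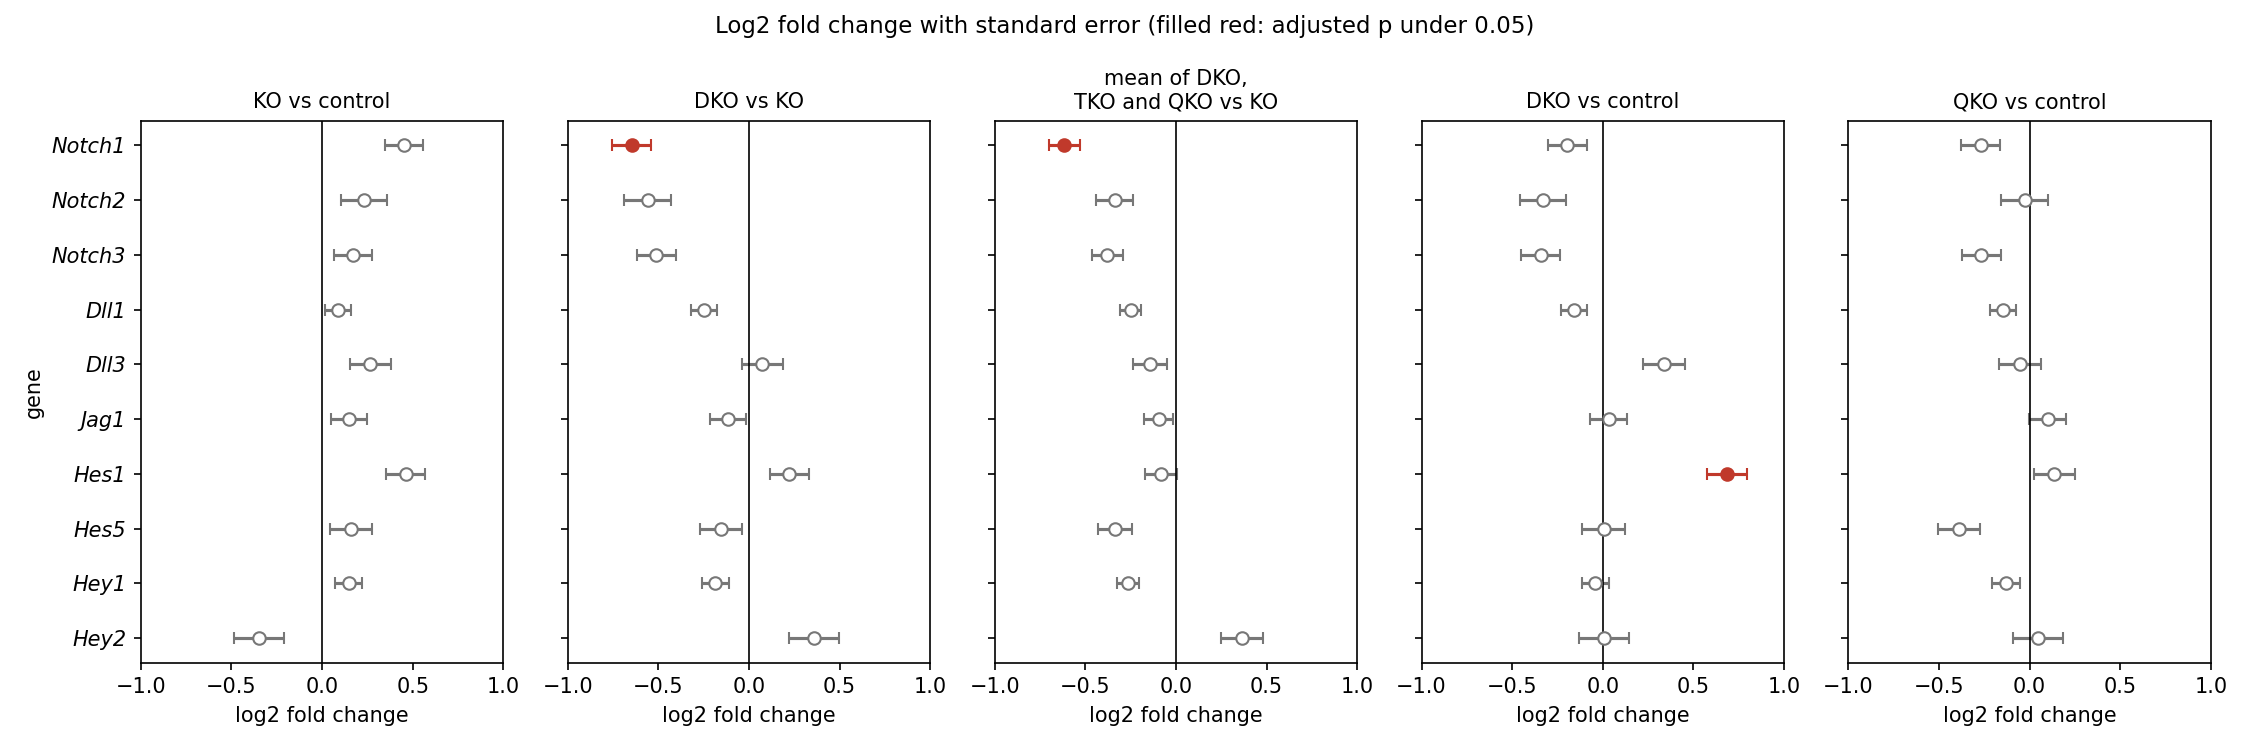
Log2 fold changes of the 10 genes (horizontal axes, with standard errors as bars) in 5 comparisons between genotypes (panels), from the edgeR fit over all 10 libraries, with called genes filled. Notch1 is filled in DKO against KO at -0.65 and in the mean of the compound knockouts against KO at -0.62, and Hes1 in DKO against control at 0.68.

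The wider pathway was described by 46 further genes, of which 44 were tested. Hes2 and Hes3 had too few counts. In 6 of the 7 contrasts between genotypes 0 of the 44 were called by edgeR, although in KO against control 7 had an unadjusted p under 0.05 (6 higher, 1 lower, beside 6.22% and 4.21% of all genes) and DESeq2 called 2. In DKO against KO 10 did (2 higher, 8 lower, beside 5.21% and 8.62% of all genes) and DESeq2 called 2. In the other 4 such contrasts DESeq2 called 0. An unadjusted p under 0.05 was found for 6 genes in TKO against DKO (11.9% of all genes), 3 in QKO against TKO (5.78%), 1 in QKO against control (6.89%) and 7 in DKO against control (8.14%). The mean of DKO, TKO and QKO against KO had 9 of 44 lower and 1 higher at an unadjusted p under 0.05. Of all genes, 7.01% were lower and 4.77% higher at that level. DESeq2 called 3 of the 44. By edgeR 1 of 44 fell, where 0.707% of all genes were called lower. This was Lfng, a glycosyltransferase that modifies Notch receptors, by -0.38 ± 0.07 (edgeR adjusted p = 0.0290). Lfng stood at 8.89 and 9.76 nRPKM in control, 13.0 and 12.1 in KO, 10.8 and 9.86 in DKO, 9.55 and 10.5 in TKO, and 9.03 and 8.52 in QKO. Both KO libraries were above all 8 others, as for Notch1, and the call held in 11 of 18 alternatives. It was lost with the HOX covariate and without control 2, KO 1, KO 2, TKO 1, TKO 2 or QKO 2 (adjusted p between 0.0549 and 0.497). The log2 difference was -0.43 with the HOX covariate and between -0.43 and -0.32 in those fits without a library. Of the 8 genes of the nuclear complex 0 were called by edgeR, and in DKO against KO 5 were lower at an unadjusted p under 0.05, among them Rbpj, the DNA-binding partner of Notch (-0.34 ± 0.10, adjusted p = 0.216). The other ligands (5 tested), Notch4, the other glycosylation enzymes (4), the genes of ligand endocytosis (4), the proteases (8), the attenuators such as Numb (9) and the other Hes and Hey genes (4) had no call in any contrast by edgeR.

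Of the proneural and Id genes, which Hes proteins repress or which act beside them, 9 of 10 were tested. In KO against control, 4 were lower and 1 higher at an unadjusted p under 0.05 (4.21% and 6.22% of all genes). The log2 difference was above 0 for 2 of the 9. By edgeR 2 fell, where 0.23% of all genes were called lower. They were Atoh1, a factor of the rhombic lip, by -1.29 ± 0.21 (edgeR adjusted p = 0.0227), and Neurod1, a factor of young neurons, by -0.33 ± 0.07 (adjusted p = 0.0472). Atoh1 was at 1.02 and 0.846 nRPKM in control and 0.400 and 0.354 in KO, and the HOX genes, also of the hindbrain, were lower in the same libraries. Their part in these values was not tested beyond the fit with the HOX covariate, given below. Atoh1 was called in 11 and Neurod1 in 9 of 18 alternatives. Atoh1 and Neurod1 were lost without either control or KO library (adjusted p between 0.0821 and 0.448), with Xist or the HOX genes as a covariate and without both libraries of high Xist, and Neurod1 also without either TKO library. With the HOX covariate Atoh1 was at -1.20 ± 0.42 and Neurod1 at -0.42 ± 0.12, and in the other fits that lost the call Atoh1 was between -1.43 and -1.15 and Neurod1 between -0.39 and -0.29.

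Markers of radial glia and of oligodendrocyte precursors were also high in the KO libraries. The 11 radial glial markers summed to between 3282 and 3384 CPM in KO and between 2541 and 2899 CPM elsewhere. In KO against control 3 of 11 rose (0.503% of all genes did), while 3 had values below 0. At an unadjusted p under 0.05, 7 were higher and 2 lower (6.22% and 4.21% of all genes). In DKO against KO 3 fell (0.37% of all genes did), and 6 were lower and 1 higher at that level (8.62% and 5.21% of all genes). The 7 markers of oligodendrocyte precursors summed to 575 and 664 CPM in KO and to between 292 and 470 CPM elsewhere, and 6 of 7 rose in KO. Of the 7 astrocyte markers, 3 rose in KO against control (Gfap, Fgfr3 and Aldh1l1) and the other 4 had values below 0, with a median log2 difference of -0.01. Their sum was 617 and 711 CPM in KO and between 444 and 616 CPM elsewhere, so KO 2 and TKO 2 were level. Their part in the result for Notch1 was not tested, and in whole brains fewer cells of a type and less RNA per cell cannot be told apart. The 8 endothelial markers stayed between 257 and 300 CPM and the 7 mural markers between 133 and 153 CPM in all libraries, with 0 of either list called in KO against control or DKO against KO by edgeR or DESeq2, and 0 at an unadjusted p under 0.05. No marker of these 5 lists was at 0 over all 10 libraries together.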

How the data were processed

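Messenger RNA was counted in 10 libraries of mouse brain, 2 per genotype. Reads were aligned with GSNAP to NCBIM37, per the submitters' processing notes. Per the file headers, the deposited counts are uniquely aligned reads per gene model, and the deposited RPKM values (nRPKM) were scaled by size factors. The sources used here give neither strand handling nor annotation release, so a member and an overlapping gene may share reads. Symbols and promoters came from RefSeq on GRCm38.p6, which named 24998 of 28059 identifiers (89.09%). No coordinate was converted between builds.

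The counts went into the quasi-likelihood test of edgeR 4.0.16, run in R 4.3.3 (TMM, filterByExpr, 5 group means over all 10 libraries, 5 residual degrees of freedom), which left 18671 genes and set aside 9388. The script was tested on simulated data. There were 8 comparisons, each adjusted over all genes. DESeq2 1.42.0, covariates for Xist, the HOX genes and length, an offset for length, no filter, and leaving out each library were alternatives. The length fits were chosen after seeing the data. Relative gene length was taken from the count divided by the nRPKM. Log2 CPM used a prior count of 2.

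The members and lists were chosen with earlier results of these data known. The text names all members, the other pathway genes called in a comparison (some are not reported here), and, for the 3 members with the smallest p for any difference, the 3 genes of highest Pearson r. Rbpj and the marker lists were picked for mention after their values were seen. Numbers of libraries follow accession order and pair nothing. Nothing in the labels says that the libraries of a genotype came from separate litters, so p-values measure the spread between these libraries, which may be technical. The libraries of each genotype differed by more than counting error (chi-square per degree of freedom between 7.87 and 20.5).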

Additional observations from a re-analysis of the deposited data

How the results depend on the processing

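The number of members called depended on the fit. For any difference among the 5 genotypes it was 2, and 5 without the filter on low counts, 5 by DESeq2, 1 with Xist as covariate and 1 when the libraries of high Xist were dropped. With the length score, Notch1, Hes1 and Hes5 were called, and with the length offset Notch1, Hes1 and Notch3. The HOX covariate left Notch1 and Notch3 called. In KO against control the number called was 0, and 1 without the filter, by DESeq2, with the length score and with the length offset, each time Notch1. In DKO against KO it was 1, and 3 without the filter, 3 by DESeq2, 3 with the HOX covariate and 3 with the length offset, but 0 with Xist as covariate and 0 when the libraries of high Xist were dropped. In DKO against control it was 1, and 0 without the libraries with high Xist and 0 with the HOX covariate. In the mean of DKO, TKO and QKO against KO it was 1, and 3 without the filter, 2 by DESeq2, 2 with the HOX covariate, 2 with the length score and 3 with the length offset. TKO against DKO, QKO against TKO and QKO against control gave 0 in every alternative.

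Leaving out each library in turn gave between 0 and 3 members for any difference, 0 and 1 in KO against control, 0 and 3 in DKO against KO, 0 and 1 in DKO against control and 0 and 3 in the mean against KO. Over the members and the 18 alternatives, 101 of 162 values that had been called kept their call and 61 lost it, while 40 of 1350 that had not been called passed. The cause of these changes was not tested. The number of all genes called in DKO against KO was 106, between 42 and 188 with a library left out and between 54 and 414 in the other alternatives. With 2 libraries per genotype, differences smaller than those named may go undetected. No paired analysis was possible because the labels give the libraries no replicate numbers.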
